A study of Mus musculus with 6 samples.

Results

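The genes described are 10 transcription factors: the AP-1 subunits Fos, Fosb, Fosl1, Fosl2, Jun, Junb and Jund, the ATF family factor Atf3, the small Maf protein Maff and the zinc finger factor Egr1. Their rows were taken by gene name from a table of 51499 loci and came to 11, because the name Junb stands on 2 loci. Immortalized WT MEFs (mouse embryonic fibroblasts) received either a scrambled siRNA as control (Scr) or an siRNA that targets Yme1l, the gene of a protease in the mitochondrial inner membrane. Each group had 3 independent cultures, collected after 72 h, and poly(A) RNA of each culture was counted per locus. The labels give the cells as 3T3 immortalized, whereas the study's methods describe expanded clones that carry loxP-flanked Yme1l alleles and were immortalized with SV40 large T antigen. By those methods the medium was not routinely renewed. The Scr libraries held 45205207, 37260605 and 41929579 counts, and the Yme1l siRNA libraries held 43630145, 42161756 and 41342446 counts. Levels are in CPM, counts divided by the TMM-scaled size of the library, and errors of levels are SD with n = 3.

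AP-1 is a dimer of basic leucine zipper (bZIP) proteins, usually 1 of the Jun family with 1 of the Fos, ATF or Maf families, that binds short DNA elements in genes of growth, matrix turnover and inflammation. Fos, Fosb, Egr1, Junb and Atf3 are immediate early genes: serum, growth factors or stress induce them within minutes from preexisting factors, and their RNAs decay quickly. The partner sets what a dimer does, since small Maf proteins lack the activation domain that Fos and Jun carry.

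Yme1l1, the targeted gene, stood at 170, 171 and 171 CPM in the Scr libraries and at 31.6, 23.4 and 45.04 CPM in the Yme1l siRNA libraries. It fell to 19.5% of its Scr level (log2 fold change −2.36, SE 0.20, adjusted p = 3.87e-05 by edgeR's quasi-likelihood test with Benjamini-Hochberg adjustment, lower in 3 of 3 libraries). Fibroblast markers were abundant, led by Col1a1, the main chain of type I collagen, at 12695 ± 1713 CPM in Scr and 8504 ± 1068 CPM in Yme1l siRNA. Summed over all 11 fibroblast markers, the level was 41300, 37900 and 34100 CPM in Scr and 22800, 22100 and 18400 CPM in Yme1l siRNA, and 8 of the 9 tested fell. On the log2 scale Col3a1 fell by 1.51, Fn1 by 0.98, the locus that holds S100a4 by 0.90 and Pdgfrb by 0.78. Thy1 and Lum were too low to test. Counts do not separate fewer cells of a kind from less RNA per cell.

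Of the leukocyte markers, Adgre1 and Cd3e had no count in any library, and Ptprc and Itgam at most 3. The 8 leukocyte markers summed to 180, 171 and 163 CPM in Scr and to 255, 242 and 248 CPM in Yme1l siRNA. Most of this was Csf1r, a growth factor receptor, which rose from 123 ± 12.8 to 205 ± 20.3 CPM (log2 fold change 0.74, adjusted p = 4.31e-04 by edgeR). The other leukocyte markers tested went the other way without passing the threshold, and their groups overlapped. Cd68 went from 46.8 ± 5.53 to 42.8 ± 16.3 CPM (log2 fold change −0.13) and Lyz2 from 1.34 ± 0.552 to 1.05 ± 0.562 CPM (−0.34). Endothelial markers summed to at most 7.8 CPM, led by Tek at 5.19 ± 0.872 CPM in Yme1l siRNA, and Emcn had no count, while Kdr went from 3, 9 and 7 counts in Scr to 43, 43 and 38. Epithelial markers summed to at most 1.33 CPM. In Scr the most abundant was Cdh1, with 2, 5 and 2 counts, against 9, 13 and 8 counts in Yme1l siRNA. Krt8, the most abundant in Yme1l siRNA, had 1 count in each Scr library and 24, 31 and 23 counts in the Yme1l siRNA libraries. The part of these markers in the results below was not tested.

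Per kilobase of the annotated coding transcript, the level of Jun in Scr was the highest of the 10, at 466 ± 52.8 CPM per kilobase. Junb (36.2 ± 7.92), Fosl2 (34.8 ± 0.863), Atf3 (32.1 ± 4.66) and Fosl1 (30.1 ± 2.94) followed at levels that neighbours in the order did not separate beyond their spread. Egr1 stood at 14.7 ± 3.99, Fos at 3.09 ± 1.97 and Maff at 2.84 ± 0.446 CPM per kilobase, the last 2 overlapping, and Fosb (0.209 ± 0.0360) and Jund (0.141 ± 0.0402) were lowest. In Yme1l siRNA, Fosl1 (54.7 ± 5.84) took the place behind Jun (583 ± 50.3), and Maff (19.2 ± 4.70) passed Egr1 (15.4 ± 5.44) by less than their spread. The deposited FPKM of the Scr group, a single value per group from the authors' program, also put Jun first, at 478, and Jund last, at 0.153. That of the Yme1l siRNA group put Fosl1, at 64.6, behind Jun, at 596. It left Maff, at 20.7, below Egr1, at 22.4, so the order of these 2 genes depended on the measure.

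**Figure D1:**
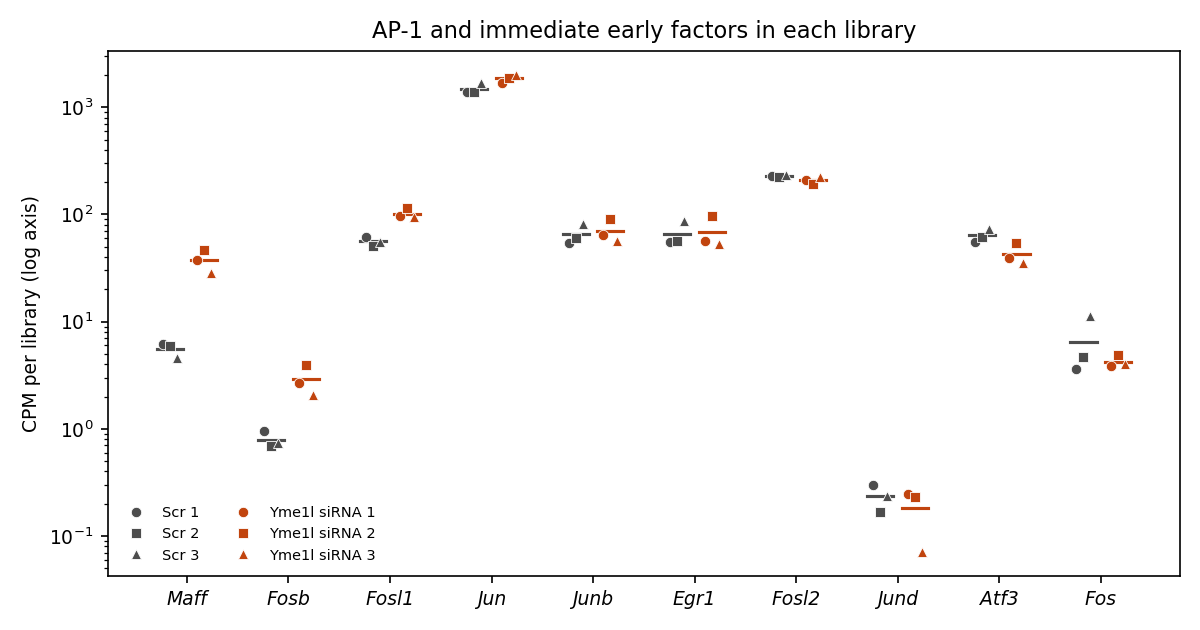
Level of the 10 factors in each library, in CPM on a log axis. Grey marks are Scr and orange marks Yme1l siRNA, the symbol gives the replicate number, and bars are group means. The Maff libraries of Yme1l siRNA lie between 28.3 and 46.7 CPM, above all Scr libraries, whereas Egr1 and Junb overlap between the groups.

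All 10 names had a locus that passed the filter on low counts, and the second Junb locus, with 1 count in all, was not tested. Maff, Fosb, Fosl1 and Jun rose and Atf3 fell, so 4 of 10 were higher and 1 of 10 lower, while Fos, Fosl2, Junb, Jund and Egr1 did not pass the threshold of 0.05. Of all 14499 loci tested, 28.4% were called higher, 29.6% lower and 58.0% in either direction. The groups did not overlap for the same 5 members, against 65.4% of all loci tested, so the number of members called is near that background.

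Maff, which pairs with bZIP partners and has no activation domain, had the largest change of the 10. It stood at 6.24, 5.88 and 4.57 CPM in Scr and at 37.7, 46.7 and 28.3 CPM in Yme1l siRNA. Every Yme1l siRNA library lay above every Scr library. The level was 6.75-fold higher (log2 fold change 2.76, SE 0.20, adjusted p = 1.75e-05 by edgeR's quasi-likelihood test). The tested loci with the profile most like that of Maff over the 6 libraries were Tmem130 and the unnamed locus AC166344.3, at root mean square distances of 0.157 and 0.168 between centred log2 CPM, against a median of 1.39 over all loci outside the members. Tmem130 was scarce, at 0.0899 CPM in Scr and 0.968 CPM in Yme1l siRNA, with a fitted log2 fold change of 3.38, and the prior count of 2 used for these profiles damps changes in scarce loci.

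Fosb, a Fos family subunit with a long and a short splice form that these counts do not separate, was scarce. It had 41, 25 and 31 counts in Scr and 119, 172 and 87 counts in Yme1l siRNA, which is 0.947, 0.693 and 0.735 against 2.68, 3.96 and 2.06 CPM. The groups did not overlap, and Yme1l siRNA 2 was highest. The rise was 3.65-fold (log2 fold change 1.87, SE 0.29, adjusted p = 6.90e-04 by edgeR). The loci most like it were Mirt1 and Sdcbp2, at distances of 0.106 and 0.125 against a median of 0.953, both themselves scarce.

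Fosl1, which encodes Fra-1, a Fos family subunit that accumulates under sustained ERK signalling, lies at chr19:5447547-5455946 in GRCm38. It stood at 62.1, 51.3 and 55.0 CPM in Scr and at 97.1, 114 and 94.4 CPM in Yme1l siRNA. The groups were apart by more than their spread. The rise was 1.82-fold (log2 fold change 0.86, SE 0.10, adjusted p = 1.72e-04 by edgeR), and Maff, Fosb and Fosl1 kept their calls in each of the 6 fits that left out a library.

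Jun, the subunit that most AP-1 dimers contain, stood at 1373, 1402 and 1678 CPM in Scr and at 1695, 1864 and 2016 CPM in Yme1l siRNA. The groups did not overlap, but Scr 3 came within 16.6 CPM of Yme1l siRNA 1. The change was 1.25-fold (log2 fold change 0.32, SE 0.11, adjusted p = 0.0288 by edgeR). It lost its call without Scr 1 (adjusted p = 0.107), Scr 2 (0.106), Yme1l siRNA 2 (0.0508) or Yme1l siRNA 3 (0.0651), while the log2 fold change stayed between 0.26 and 0.42 over the 6 fits without a library. The locus shares a region with the antisense gene Junos, whose joint locus with n-R5s189 had 1474, 1044 and 1094 counts in Scr and 3328, 3165 and 3493 in Yme1l siRNA (log2 fold change 1.38, SE 0.11, adjusted p = 2.40e-05). The library kit kept the strand of the RNA, but whether the counting used it is not given in the sources used here, so reads of Jun and Junos may be mixed.

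Atf3, a stress-induced factor that often represses, was the member that fell. It stood at 55.8, 61.3 and 73.8 CPM in Scr and at 39.4, 54.4 and 35.0 CPM in Yme1l siRNA. The groups did not overlap, though Scr 1 and Yme1l siRNA 2 differed by 1.32 CPM. The fall was 1.48-fold (log2 fold change −0.57, SE 0.17, adjusted p = 0.0175 by edgeR), and it missed the threshold without Scr 3 (adjusted p = 0.0638) or without Yme1l siRNA 1 (0.0639). The log2 fold changes in those fits were −0.45 and −0.51, within a range of −0.77 to −0.44 over the 6 fits without a library.

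**Figure D2:**
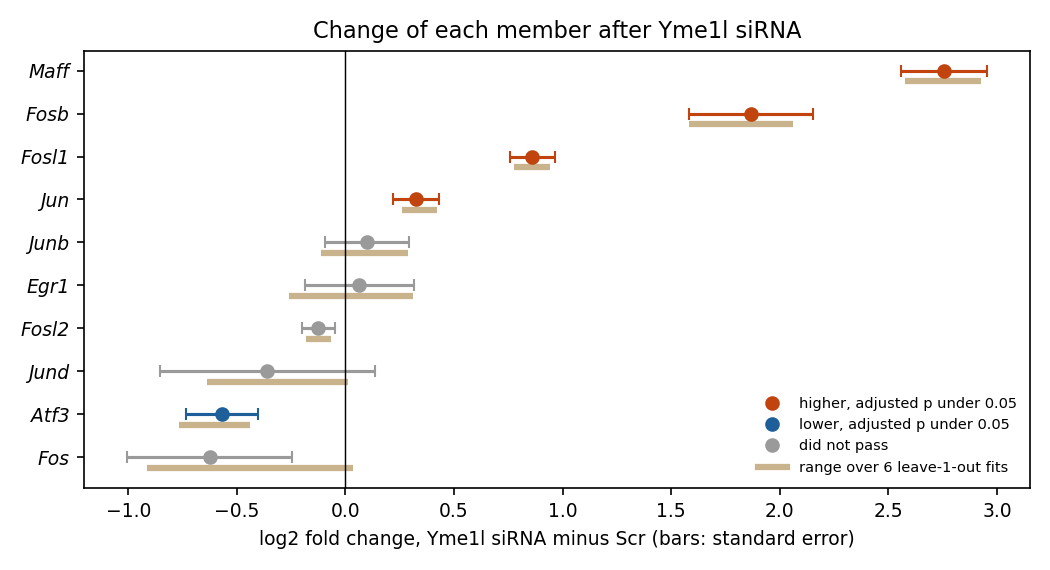
Log2 fold change of each factor, Yme1l siRNA minus Scr, with its standard error, and below each the range over the 6 fits that leave out a library. Maff, Fosb and Fosl1 stay above 0.77 in all of these fits, whereas the ranges of Fos, Junb, Jund and Egr1 cross 0.

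The windows of 300 bases around the start sites, from RefSeq on GRCm38.p6, held entries for 8 of the 10 members, with 3 windows for Maff, and none for Fosl1 and Egr1. They run from 250 bases before the start site to 50 bases into the transcript. Those of the called members are shown, for Maff the window that holds a full cyclic AMP response element (CRE), because these genes changed. They lie at chr15:79347270-79347569 (Maff, plus strand), chr7:19309996-19310295 (Fosb, minus strand), chr4:95052173-95052472 (Jun, minus strand) and chr1:191183284-191183583 (Atf3, minus strand), and are written along the gene's own strand. Capitals mark matches, on either strand, to TGACTCA (the AP-1 site), TGACGTCA (the CRE), its core TGACG, TGACATCA (a variant AP-1 site), GCGGGGGCG (the EGR site) and the CArG box bound by SRF, and on the gene's strand TATAAA. The CRE contains its core on both strands.
Maff: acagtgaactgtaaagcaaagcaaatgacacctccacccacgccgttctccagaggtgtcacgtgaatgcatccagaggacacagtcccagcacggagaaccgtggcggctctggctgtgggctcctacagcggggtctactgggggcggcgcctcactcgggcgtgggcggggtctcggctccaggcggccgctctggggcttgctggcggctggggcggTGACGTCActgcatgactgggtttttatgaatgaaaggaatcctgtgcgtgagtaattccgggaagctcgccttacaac
Fosb: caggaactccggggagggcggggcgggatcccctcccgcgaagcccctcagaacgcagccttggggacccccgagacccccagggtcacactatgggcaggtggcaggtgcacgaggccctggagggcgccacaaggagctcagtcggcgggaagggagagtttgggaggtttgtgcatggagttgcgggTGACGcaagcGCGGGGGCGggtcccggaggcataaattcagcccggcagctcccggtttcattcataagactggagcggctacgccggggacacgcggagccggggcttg
Jun: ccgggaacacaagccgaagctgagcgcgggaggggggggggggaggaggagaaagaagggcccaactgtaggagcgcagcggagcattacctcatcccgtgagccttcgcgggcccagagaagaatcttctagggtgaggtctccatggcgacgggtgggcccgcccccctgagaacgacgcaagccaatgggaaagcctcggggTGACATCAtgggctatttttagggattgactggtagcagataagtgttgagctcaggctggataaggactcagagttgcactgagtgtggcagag
Atf3: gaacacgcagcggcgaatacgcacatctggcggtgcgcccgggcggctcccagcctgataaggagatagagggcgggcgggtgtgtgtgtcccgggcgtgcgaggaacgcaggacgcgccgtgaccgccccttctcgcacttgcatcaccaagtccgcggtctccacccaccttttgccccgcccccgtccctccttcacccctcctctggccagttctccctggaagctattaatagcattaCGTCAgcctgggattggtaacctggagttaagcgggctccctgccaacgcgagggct

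The CRE of Maff began 29 bases before the start site, and 1.79% of the 32817 promoter windows kept, all outside chromosome 18, held one. The variant site of Jun began 45 bases before the start site (3.62% of windows), and another Maff window held it at the same distance. Fosb had a CRE core (20.8% of windows) and an EGR site, 60 and 50 bases before the start site, Atf3 had a core 7 bases before it, and an EGR site was also in the Fosl2 window (2.91% of windows). No member window held TGACTCA, which 5.20% of all windows did, or a CArG box, which 1.63% did. The CRE core was in windows of 5 of the 8 genes: Atf3, Fos, Fosb, Junb and Maff, the last with 3 windows to search. The core contains CG, of which the windows that held it had 14 to 27, against a median of 7 over all windows. The part of base composition in these matches was not tested. TATAAA was in the Fos window, 33 bases before the start site, and in the Junb window, where it began at the annotated start site itself. It was in 8.32% of all windows. A match is a stretch of letters only, and one missing from a window says nothing about sites elsewhere.

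Fos, the founding member of its family and a serum response gene, stood at 3.65, 4.63 and 11.3 CPM in Scr and at 3.83, 4.85 and 4.01 CPM in Yme1l siRNA. Scr 3 stood alone, and the other 5 libraries lay between 3.65 and 4.85 CPM. The log2 fold change of −0.62 (SE 0.38, adjusted p = 0.189 by edgeR) became 0.035 without Scr 3 (adjusted p = 0.888).

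Egr1, a zinc finger factor induced through SRF and Elk1, stood at 54.8, 56.7 and 86.7 CPM in Scr and at 56.7, 97.2 and 53.4 CPM in Yme1l siRNA. Junb, a Jun family subunit often opposed to Jun in growth control, stood at 54.1, 60.8 and 81.6 CPM in Scr and at 64.7, 89.9 and 56.0 CPM in Yme1l siRNA. Both genes were highest in Scr 3 and Yme1l siRNA 2, and both overlapped between the groups. The log2 fold changes were 0.06 for Egr1 (SE 0.25, adjusted p = 0.841 by edgeR) and 0.10 for Junb (SE 0.19, adjusted p = 0.681), and without Yme1l siRNA 2 they were −0.26 and −0.11.

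Fosl2, which encodes Fra-2, varied little, between 223 and 234 CPM in Scr and between 193 and 225 CPM in Yme1l siRNA (log2 fold change −0.13, SE 0.08, adjusted p = 0.185 by edgeR). Its deposited FPKM went the other way, from 36.8 in Scr to 42.6 in Yme1l siRNA, as for no other member. Jund, a subunit usually present in resting cells, had only 3 to 13 counts per library, which is too few to show a change of this size (log2 fold change −0.36, SE 0.50, adjusted p = 0.558). The opposite strand of its locus carries Gm11175, which had 0 counts in every library, and how reads that match both were counted is not known although the kit kept the strand, so the level of Jund is uncertain.

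Among the members, 6 of 10 were highest in Scr 3 of the Scr libraries and 7 of 10 in Yme1l siRNA 2 of the Yme1l siRNA libraries, against 37.9% and 38.8% of all loci tested. Scr 3 exceeded the mean of Scr 1 and Scr 2 by 2.73-fold for Fos, 1.55-fold for Egr1 and 1.42-fold for Junb. Maff, at a ratio of 0.755, was lower in Scr 3, and the median ratio was 1.13 over the members and 0.997 over all loci. Of the 34 other immediate early genes, 13 (38.2%) were highest in Scr 3, and their median ratio was 0.969. Their ratios ran from 2.17 for Ier2, 1.75 for Zfp36 and 1.65 for Btg2 down to 0.731 for Egr2, 0.698 for Egr3, 0.598 for Gadd45b and 0.592 for Arc. In Yme1l siRNA 2, Egr1 (1.77-fold), Fosb (1.67-fold), Junb (1.49-fold) and Atf3 (1.46-fold) exceeded the mean of the other two, with a median of 1.43 over the members and 1.00 over all loci. Of the other immediate early genes, 17 of 34 were highest in Yme1l siRNA 2, with a median ratio of 1.09 and values from 1.88 for Gem and 1.82 for Egr2 down to 0.723 for Nr4a2. These libraries were chosen after their values were seen. With both left out, the members called were again 4 higher and 1 lower, with log2 fold changes of 2.45 for Maff, 1.53 for Fosb, 0.76 for Fosl1, 0.42 for Jun and −0.65 for Atf3, and −0.071 for Fos and −0.014 for Egr1.

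**Figure D3:**
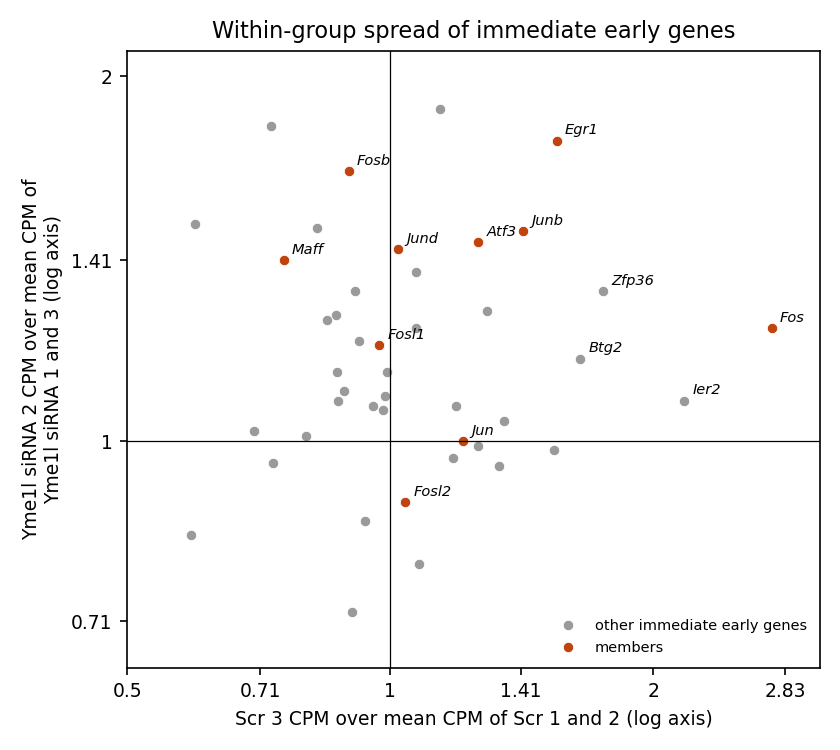
Ratio of 1 library to the mean of the other two in its group, on log axes, for members (orange) and other immediate early genes (grey). The horizontal axis is Scr 3 and the vertical axis Yme1l siRNA 2. Fos lies at 2.73 on the first, and Egr1 at 1.55 and 1.77.

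As annotated in GENCODE M21, the members have few exons. Of the 10, 3 (Jun, Junb and Jund) have a single exon, as do 7.19% of 21875 coding genes, and the median is 3.5 exons against 7. The 3′ untranslated regions of all 10 hold ATTTA, a core of elements that mark RNAs for decay, as do 61.6% of coding genes with such a region, and the longer TATTTAT is in 8 of 10 against 25.5%. The density of ATTTA was 4.91 per kilobase for Fos, which did not pass the threshold, against a median of 1.12 over coding genes. It was 3.28 for Maff and 0.47 for Fosb, which both rose. Of the other members, Junb had 4.12, Jun 3.24, Atf3 2.53, Jund 1.88, Fosl2 1.72, Egr1 1.64 and Fosl1 1.57. A link between this density and the change was not tested.

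The other bZIP factors can pair with AP-1 subunits or compete for their sites. They had 5 of 23 tested loci higher and 10 lower, against 28.4% and 29.6% of all loci tested. The median log2 fold change of the list was −0.20 against 0.01 for all loci. Crem, which binds the CRE, fell from 15.8 ± 1.33 to 6.98 ± 0.765 CPM (log2 fold change −1.18, SE 0.12, adjusted p = 7.59e-05 by edgeR). Creb1, which binds the same element, fell by 0.94 on the log2 scale. Atf1, another CRE binder (0.66), Atf6, a sensor of the endoplasmic reticulum (0.58), and Atf4, the main factor of the integrated stress response (0.41), rose. Nfe2l1, an abundant regulator of proteasome genes, fell by 0.23 (adjusted p = 0.0251), and its call was lost with library size alone (adjusted p = 0.108) and without Scr 3 (0.0678), Yme1l siRNA 1 (0.0675) or Yme1l siRNA 2 (0.0529), or with Scr 3 and Yme1l siRNA 2 both left out (0.0876). Batf and Batf2 were not tested.

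Among the other immediate early genes, 17 of 34 tested were higher and 8 lower, against 28.4% and 29.6% of all loci tested. The median log2 fold change of the list was 0.44. Ptgs2, the inducible cyclooxygenase, rose from 9.24, 8.73 and 9.74 CPM to 58.6, 49.7 and 66.9 CPM, with every Yme1l siRNA library above every Scr library (6.32-fold, log2 fold change 2.66, SE 0.12, adjusted p = 3.60e-06 by edgeR). Cyr61, a matrix protein (2.16), Plk2, a kinase (1.38), Myc (1.02) and Sgk1, a kinase (0.80), also rose on the log2 scale. Egr3 (−1.93), Ier5l (−1.44) and Rhob, a small GTPase (−1.25), fell, so genes that share rapid induction moved both ways. Egr4 was not tested.

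The kinases and factors upstream of these promoters gave 3 of 22 tested higher and 12 lower, against 28.4% and 29.6% of all loci. The median log2 fold change of the list was −0.31. Mapk3, which encodes ERK1, fell by 1.07, the locus that joins Elk1 and Uxt by 0.75 and Mapk9, which encodes JNK2, by 0.50 on the log2 scale, and Mkl1, an SRF cofactor, by 0.41. Map2k2, a kinase of ERK, rose by 0.46. Mapk14, which encodes p38 alpha (0.28, adjusted p = 0.0204 by edgeR), and Rps6ka5, the kinase MSK1 (0.58, adjusted p = 0.0205), rose too. Both calls were lost without Scr 2 (adjusted p = 0.0862 and 0.0607 by edgeR). That of Mapk14 was also lost without Scr 1 (0.0641) or Yme1l siRNA 3 (0.0505). That of Rps6ka5 was also lost without Yme1l siRNA 2 (0.0536) or with Scr 3 and Yme1l siRNA 2 both left out (0.0528). Kinase activity was not measured.

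Of the genes listed as AP-1 targets, 11 of 21 tested were higher and 2 lower, against 28.4% and 29.6% of all loci. Called in either direction were 61.9%, against 58.0% of all loci. The median log2 fold change of the list was 0.55. Ccnd1, the D-type cyclin of cell cycle entry, rose from 215 ± 9.50 to 443 ± 14.6 CPM (log2 fold change 1.04, SE 0.07, adjusted p = 1.34e-05 by edgeR). Cd44, a hyaluronan receptor (1.13), and Hbegf, a ligand of the EGF receptor (0.97), rose as well. Mmp13, a collagenase, fell by 2.22, from 519, 582 and 173 CPM to 83.2, 96.4 and 93.6 CPM, with Scr 3 far under the other two Scr libraries. Spp1, a secreted matrix protein, fell by 0.82 (adjusted p = 0.0210) with overlapping groups, and lost its call without Scr 1 (0.0702), Scr 2 (0.0834) or Yme1l siRNA 1 (0.0538). Lox, a collagen crosslinker, did not pass (−0.04). With the replicate number as a block, 4 rather than 2 of these genes were lower, Mmp12 and Timp1 being added, names given after their values were seen. The list is known from other settings and these data do not show what AP-1 bound.

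Among EGR1 targets and NAB corepressors, 2 of 10 were higher and 3 lower, against 28.4% and 29.6% of all loci tested. The median log2 fold change of the list was −0.06. Nab2, a corepressor that Egr1 induces and that binds it, fell from 137, 153 and 90.7 CPM to 48.5, 58.7 and 44.0 CPM (2.52-fold, log2 fold change −1.33, SE 0.19, adjusted p = 4.55e-04 by edgeR), with no overlap, while Egr1 itself did not pass the test. Pdgfa, a growth factor, fell by 0.50, and F3, the tissue factor, by 0.56 (adjusted p = 0.0246), a call lost without Scr 1 (0.0764), Scr 2 (0.0937) or Yme1l siRNA 3 (0.0506). Nab1 rose by 0.21 (adjusted p = 0.0301), a call lost in 5 of the 6 fits without a library (adjusted p from 0.0579 to 0.0857), with all loci of at least 1 count (0.0722) and with Scr 3 and Yme1l siRNA 2 left out (0.107). The locus that joins Igf2 and AC013548.1 had 2, 3 and 2 counts in Scr and 20, 26 and 13 counts in Yme1l siRNA. Thbs1, a matrix glycoprotein, did not pass the test (log2 fold change 0.20, adjusted p = 0.660 by edgeR), but passed with the replicate number as a block (adjusted p = 0.0219).

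The heat shock genes, another rapidly induced set, gave 3 of 10 higher and 2 lower, against 28.4% and 29.6% of all loci tested. The median log2 fold change of the list was 0.16. Hsp90aa1, a cytosolic chaperone (0.73), and Hspe1, a mitochondrial cochaperone (0.48), rose, and Hspb1 (−0.97) and Bag3 (−0.78) fell. Hsph1 rose by 0.57 (adjusted p = 0.0404) with overlapping groups, Scr 3 (292 CPM) lying above Yme1l siRNA 2 (269 CPM), a call lost without Scr 1 (0.127), Scr 2 (0.131), Yme1l siRNA 1 (0.0626) or Yme1l siRNA 3 (0.110) and with DESeq2 (0.0840). Hspa8 did not pass (0.04).

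**Figure D4:**
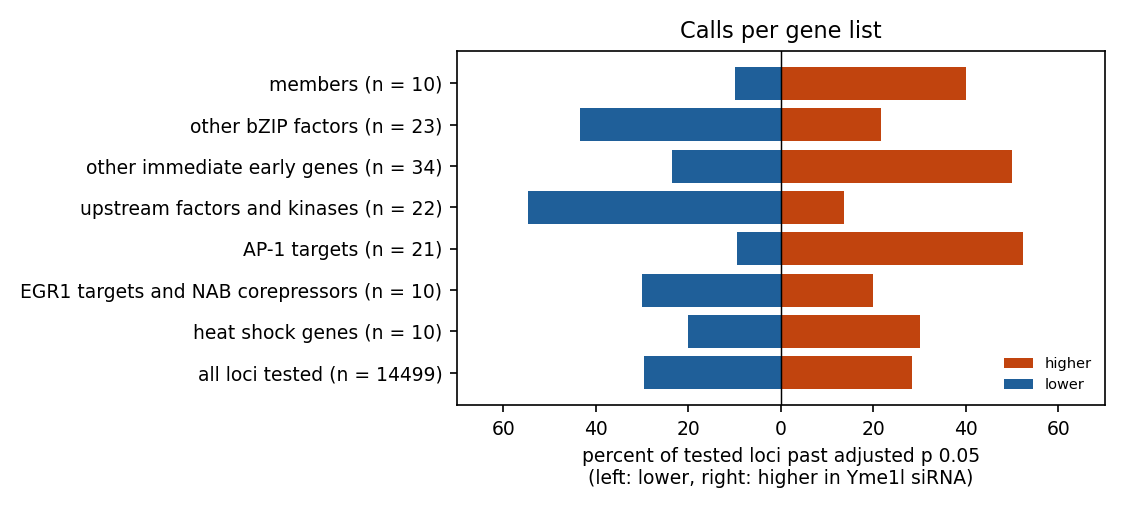
Share of tested loci called higher (right, orange) or lower (left, blue) in Yme1l siRNA for the members, each list and all loci, in percent. The members show 4 of 10 higher and 1 of 10 lower, beside 28.4% and 29.6% of all 14499 loci.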

How the data were processed

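RNA-Seq libraries of 6 cultures, 3 Scr and 3 Yme1l siRNA, were used, grouped by their labels, and 0 per-sample columns were left unmapped. Per the submitters' processing notes and the methods, reads were aligned to GRCm38 with HISAT2 2.0.4, assembled with StringTie 1.3.3 and compared with Cuffdiff 2.2.1. The authors deposited raw counts per locus, and the program that counted them is not given in the sources used here. Their second table holds a deposited FPKM value per group, used only beside the levels of the members, and the authors' own fold changes and p-values, which were not used.

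edgeR 4.0.16 in R 4.3.3 tested Yme1l siRNA against Scr with TMM factors and the quasi-likelihood test. Loci were kept by filterByExpr (minimum count 10, minimum total 15), p-values were adjusted by Benjamini-Hochberg over 14499 loci, and the threshold was 0.05. The standard error is the log2 fold change divided by the square root of F. The biological coefficient of variation was 0.131. Depth limits what can be seen for Jund, at 3 to 13 counts per library. Each test was first run on simulated counts in which 200 loci were changed 2-fold. There edgeR recovered 81% of these and called 14 unchanged loci. Changes as small as those of Jun and Atf3 were not simulated. Far fewer loci were changed there than were called in the data, so the simulation does not cover such a setting.

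Genes named were Yme1l1, the members, from each list up to 3 called genes per direction with the smallest adjusted p and the 2 with the highest level, and for each member called with at least a 2-fold change the 2 loci with the closest centred log2 CPM profile (prior count 2). Some genes that this rule names are not reported here. Members and lists were chosen with earlier results of these data known. Alternatives were DESeq2 1.42.0, limma-voom (limma 3.58.1), other scale factors, filters and thresholds, a replicate block and leaving out libraries. Leaving out Scr 3 and Yme1l siRNA 2 together was added after seeing the data. Libraries sharing a replicate number deviated together on log2(CPM + 1), with correlations of 0.11, 0.19 and 0.28 for numbers 1 to 3, but of 0.041, 0.12 and 0.19 with a prior count of 2. On the first scale pairs of different numbers ranged from −0.26 to 0.15, the highest being Scr 1 with Yme1l siRNA 2. On the second scale pairs of different numbers were not computed, so its smaller correlations have nothing to be compared with. Whether the numbers pair the cultures was therefore not settled, and the labels do not say. Within a group no library repeated another (chi-square per degree of freedom 10.1 to 74.5). Promoter windows and transcripts came from RefSeq and GENCODE M21, and windows on chromosome 18 were left out. Tables and figures used pandas 2.3.3 and matplotlib 3.10.9 in Python 3.11.15.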

Additional observations from a re-analysis of the deposited data

How the results depend on the processing

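Across 15 alternatives, Maff, Fosb, Fosl1 and Yme1l1 kept their direction and their side of the threshold. Over the 6 fits without a library, the members higher numbered 3 to 4 and lower 0 to 1. With a threshold of 0.01 they were 3 and 0. With the replicate block 4 members were higher and 1 lower (4227 and 4460 loci in all), and beside Thbs1 and the lower AP-1 targets it changed no other call among the genes named.

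Values that changed sign were those of genes that did not pass the test. Without a library, the log2 fold change ranged from −0.91 to 0.035 for Fos, from −0.11 to 0.29 for Junb, from −0.64 to 0.011 for Jund and from −0.26 to 0.31 for Egr1, and with Scr 3 and Yme1l siRNA 2 left out it was −0.014 for Egr1 and −0.082 for Thbs1. The ranges were −0.22 to 0.11 for Lox (0.036 with library size alone), −0.13 to 0.57 for Thbs1, −0.10 to 0.13 for Hspa8 and −0.41 to 0.13 for the leukocyte marker Cd68. The AP-1 targets lower numbered 4 with the replicate block, 4 with both libraries left out and 1 to 3 without a library. The EGR1 targets and NAB corepressors higher numbered 1 with all loci of at least 1 count, 1 with a mean of at least 50 counts, 1 with both libraries left out and 1 to 3 without a library, and the upstream factors and kinases higher 1 to 3 without a library. The cause was not tested. Jund was not tested with a mean of at least 50 counts. With 3 cultures per group, the call of a small change such as that of Jun can be lost when a library is left out, though its log2 fold change stayed between 0.26 and 0.42, and RNA levels at 72 h give no time course and no measure of protein or DNA binding.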
